A study of Homo sapiens with 4 samples.

Results

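CSF3R, the gene of the granulocyte colony-stimulating factor (G-CSF) receptor, and the genes of 3 related receptor chains, CSF2RB, CSF2RA and IL3RA, were described by the open chromatin around them in HL-60 cells. These 4 genes were chosen by name out of 20149 protein-coding gene symbols of the annotation. For each gene, the window was the gene body with 50 kb on either side on hg19. Peaks of the 4 lists that overlapped by at least 1 bp were joined into regions, and the 4 windows held 28 of the 78063 regions of the series. Of the 4 genes, CSF3R alone encodes the receptor for G-CSF itself. CSF2RA and CSF2RB encode the chains of the receptor for granulocyte-macrophage colony-stimulating factor (GM-CSF), and IL3RA encodes the interleukin 3 binding chain.

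HL-60 is a human leukemia line, labelled acute promyelocytic leukemia from peripheral blood, whose cells mature toward granulocytes when given all-trans retinoic acid (ATRA). Open chromatin was mapped by ATAC-seq, a method that uses the Tn5 transposase to insert sequencing adapters into accessible DNA. Treatment was with ATRA at 1 µM for 4 days in the ATRA group and with an equal volume of ethanol, the vehicle, for 4 days in the control group, and in both the medium and the agent were renewed at day 2. Each group had 2 replicate libraries, which the study's methods call independent biological replicates, all from this 1 cell line.

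G-CSF binds a pair of identical CSF3R chains and drives the growth and maturation of neutrophil precursors. GM-CSF and interleukin 3 bind to chains of their own, encoded by CSF2RA and IL3RA, which then pair with the common beta chain encoded by CSF2RB, and this chain carries the signal through the kinase JAK2 to STAT5. The myeloid transcription factors PU.1 and the C/EBP proteins are known to act at the promoters of CSF3R and CSF2RA.

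The lists held 43494 peaks in ATRA replicate 1, 63541 in ATRA replicate 2, 42081 in control replicate 1 and 45903 in control replicate 2. ATRA replicate 2 stood apart, with a median peak width of 416 bp against 291 to 328 bp in the other 3 libraries and 31.6 Mb covered against 16.3 to 17.5 Mb. Read counts are not part of the lists. Sequencing depth was thus unknown, and the part of depth in any difference of peak number or width was not tested. Among 7 granulocyte precursor genes, 3 had a promoter peak in ATRA replicate 1, 5 in ATRA replicate 2, 3 in control replicate 1 and 4 in control replicate 2. Over all protein-coding genes the share with a promoter peak ranged from 43.4% to 49.1% between libraries. The 3 T cell, 3 B cell, 3 erythroid, 2 hepatocyte and 2 epithelial marker genes had 0 promoter peaks in every library.

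A region was called ATRA-specific when both ATRA libraries and not both control libraries had a peak there, control-specific in the opposite case, and shared when all 4 libraries had one. By this rule 5 of the 28 regions (17.9%) were ATRA-specific, and the same share, 17.9%, was found over all regions of the genome. Only 1 of the 28 (3.57%) was control-specific, against 9.53% of all regions, and 6 (21.4%) were shared, against 30.3%. The ATRA-specific share was therefore that of the genome. Of the 5 ATRA-specific regions, 3 had no peak in either control library (10.7% of the 28, against 8.94% of all regions), and no control-specific region was free of ATRA peaks (0 of 28, against 3.37%). The other 16 regions met none of the rules, and 14 of them came from a single library, 9 of them from ATRA replicate 2, 2 from control replicate 1 and 3 from control replicate 2. Without ATRA replicate 1 the number of ATRA-specific regions was 16, and without each other library it was 4 or 5. The number of control-specific regions was 5 without control replicate 1, 4 without control replicate 2 and 0 without ATRA replicate 1.

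**Figure D1:**
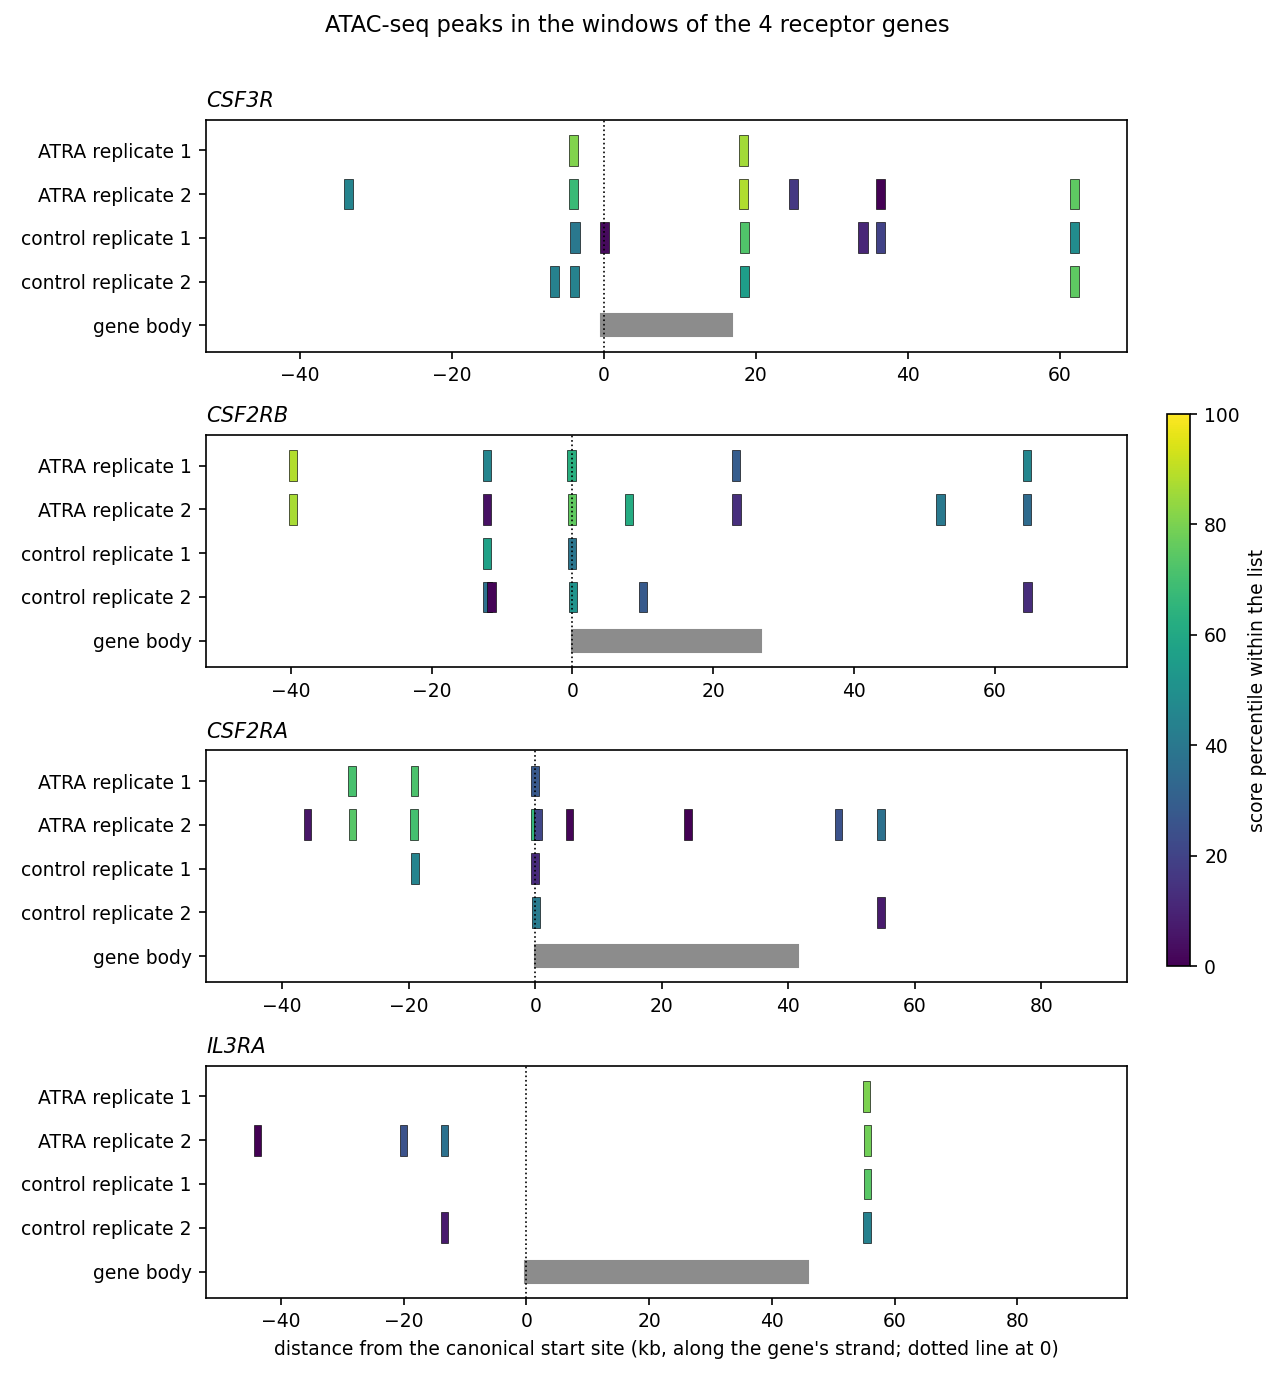
Peaks in the windows of CSF3R, CSF2RB, CSF2RA and IL3RA (X copy), by library and by distance from the canonical start site in kb along the strand of the gene. Each mark is centred on the peak of a region in a library (at the CSF2RB start site in ATRA replicate 1, on its 2 peaks), is drawn at 1 fixed width that is larger than the peak, and is coloured by its score percentile. The CSF2RB and CSF2RA start sites carry a peak in all 4 libraries, the CSF3R start site in control replicate 1 only and the IL3RA start site in none.

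CSF3R is a minus-strand gene of chromosome 1 (chr1:36931644-36948879), with its canonical start site at 36948514 (ENSG00000119535.20). Its window held 2 peaks in ATRA replicate 1, 6 in ATRA replicate 2, 6 in control replicate 1 and 4 in control replicate 2, which joined into 9 regions. None of the 9 was ATRA-specific, 1 was control-specific and 2 were shared, 5 came from a single library, and 1, in an intron of OSCP1, had a peak in ATRA replicate 2 and control replicate 1 (percentiles 0.15 and 19.6). The receptor's own start site was covered by 1 peak, in control replicate 1, with a width of 228 bp and a score percentile of 2.5. The score percentile is the rank of a peak among all peaks of its own list, from 0 for the lowest score to 100 for the highest, so this was among the weakest peaks of its list. In the other 3 libraries the nearest peak lay 3.69 kb (ATRA replicate 1), 3.71 kb (ATRA replicate 2) and 3.77 kb (control replicate 2) from the start site. By comparison, 48.5% of protein-coding genes had a promoter peak in ATRA replicate 1, 49.1% in ATRA replicate 2, 46.6% in control replicate 1 and 43.4% in control replicate 2.

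These nearest peaks belonged to a shared region 3.85 kb upstream of the CSF3R start site, at chr1:36952203-36952882, outside protein-coding genes. Its central 200 bp are shown because they hold the only PU.1 match among the 9 regions of the CSF3R window, printed in capitals on the plus strand of hg19 (chr1:36952260-36952459).
CSF3R upstream region: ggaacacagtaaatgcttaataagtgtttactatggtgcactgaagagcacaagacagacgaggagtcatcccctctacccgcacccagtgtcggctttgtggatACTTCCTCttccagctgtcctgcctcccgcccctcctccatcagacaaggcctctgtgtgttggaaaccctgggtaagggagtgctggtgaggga
The match is GAGGAAGT read on the minus strand. This motif was found in 9.37% of the 78024 regions whose central 200 bp could be read.

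The peak upstream of CSF3R had a score percentile of 80.9 in ATRA replicate 1, 67.9 in ATRA replicate 2, 40.2 in control replicate 1 and 44.2 in control replicate 2. Both ATRA values lay above both control values. Its width was 680 and 609 bp in ATRA replicates 1 and 2 and 188 and 247 bp in control replicates 1 and 2, again without overlap of the groups. The mean percentile was 74.4 ± 9.21 (SD, n = 2) after ATRA and 42.2 ± 2.80 (SD, n = 2) in control cells, a difference of 32.2 percentile points (SE 16.5) that did not pass limma's test (adjusted p = 0.527). Relative to the median width of its list, the peak was 2.49-fold wider after ATRA (log2 difference 1.31, SE 0.34), with a limma p of 0.00322 that also failed the adjustment over 23653 regions (adjusted p = 0.285). Over the alternative settings this log2 width difference ranged from 1.04 to 1.59 with adjusted p from 0.0899 to 0.568.

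The other shared region of the CSF3R window covered the start site of the neighbouring gene MRPS15, a mitochondrial ribosomal protein, 18.5 kb downstream of the CSF3R start site (chr1:36929737-36930480). Its score percentile was 86.3 in ATRA replicate 1, 88.1 in ATRA replicate 2, 72.4 in control replicate 1 and 55.2 in control replicate 2. Its width was 606, 744, 414 and 245 bp in the same order. The ATRA libraries were above the control libraries in both measures, by 23.5 percentile points (SE 12.1, limma adjusted p = 0.527) and 0.81 on the log2 scale of relative width (SE 0.31, limma adjusted p = 0.463). Without control replicate 2 these differences were 14.8 points and 0.51. The control-specific region of the window lay in an intron of OSCP1, 61.9 kb downstream (chr1:36886430-36886775). It had a score percentile of 48.2 in control replicate 1 and 75.4 in control replicate 2, but ATRA replicate 2 had a peak there too, at 75.0, and ATRA replicate 1 alone lacked it. The ATRA libraries thus differed from each other at this region.

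The RefSeq promoter table held 2 start sites of CSF3R, of which the upstream one is printed for its C/EBP match (TTGCNNAA, in capitals), on the minus strand of GRCh38.p14 (chr1:36483265-36483564).
CSF3R RefSeq promoter, upstream start: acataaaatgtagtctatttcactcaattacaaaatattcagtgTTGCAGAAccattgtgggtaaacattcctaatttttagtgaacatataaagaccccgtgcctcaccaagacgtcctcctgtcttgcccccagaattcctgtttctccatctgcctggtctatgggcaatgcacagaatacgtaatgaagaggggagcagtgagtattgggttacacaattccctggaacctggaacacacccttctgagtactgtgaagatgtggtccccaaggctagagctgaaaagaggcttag
The C/EBP motif was found in 10.5% of the 34796 promoters of the table. The downstream start of CSF3R held no match to any of the 5 motifs searched. Only exact matches to these patterns were sought, so the lack of a match, here or elsewhere, does not show that a site is absent.

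CSF2RB is a plus-strand gene of chromosome 22, chr22:37309670-37336481 (ENSG00000100368.15), with its canonical start site at the first of these bases. Its window held 6, 7, 2 and 5 peaks in ATRA replicate 1, ATRA replicate 2, control replicate 1 and control replicate 2, in 9 regions. Of these, 3 were ATRA-specific, 0 control-specific, 2 shared and 4 from a single library. The start site was in a shared region, at chr22:37309171-37310103, and a promoter peak in all 4 libraries was found for 37.3% of protein-coding genes.

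The CSF2RB promoter peak had a score percentile of 63.2 in ATRA replicate 1, 75.7 in ATRA replicate 2, 38.9 in control replicate 1 and 51.5 in control replicate 2. Its width was 632 bp in ATRA replicate 1, where it was called as 2 peaks, and 933 bp in ATRA replicate 2, beside 233 and 326 bp in control replicates 1 and 2. With the higher percentile of the 2 peaks and their summed width, both measures were higher in both ATRA libraries than in either control library. With the mean percentile of the 2 peaks, ATRA replicate 1 stood at 32.6, below both controls. The mean width was 782.5 ± 212.8 bp (SD, n = 2) after ATRA and 279.5 ± 65.8 bp (SD, n = 2) in control cells. Relative to the list median the peak was 2.32-fold wider after ATRA (log2 difference 1.21, SE 0.32), with a limma p of 0.00349 and an adjusted p of 0.293. Over the alternative settings the log2 width difference ranged from 0.79, with lists of equal size, to 1.54, with limma adjusted p from 0.0843 to 0.541. The percentile difference was 24.2 points (SE 16.8) and did not pass either (limma adjusted p = 0.625), and with the mean of the joined peaks it was 8.90 points (limma adjusted p = 0.909).

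The strongest ATRA-specific region of the CSF2RB window lay 39.7 kb upstream, in an intron of NCF4 (chr22:37269677-37270375), the gene of a subunit of the phagocyte NADPH oxidase. Its score percentile was 88.6 in ATRA replicate 1 and 86.9 in ATRA replicate 2, its width was 670 and 686 bp, and neither control library had a peak. The ATRA-specific region inside CSF2RB, in an intron 23.2 kb downstream of the start site (chr22:37332731-37333145), was also without a control peak. It was weaker, at percentiles 29.2 and 13.6 and widths of 309 and 377 bp in the ATRA libraries. The other ATRA-specific region, 64.6 kb downstream and outside protein-coding genes (chr22:37374113-37374429), had percentiles of 45.9 and 34.5 in the ATRA libraries and a peak in control replicate 2 at 12.7.

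The central 200 bp of the 2 regions with no control peak are shown because they had peaks in the ATRA libraries only and each holds 1 match, in capitals, on the plus strand of hg19. The NCF4 intron region (chr22:37269918-37270117) holds a C/EBP match, as 12.6% of all regions do, and the CSF2RB intron region (chr22:37332804-37333003) holds a PU.1 match on the minus strand.
NCF4 intron region: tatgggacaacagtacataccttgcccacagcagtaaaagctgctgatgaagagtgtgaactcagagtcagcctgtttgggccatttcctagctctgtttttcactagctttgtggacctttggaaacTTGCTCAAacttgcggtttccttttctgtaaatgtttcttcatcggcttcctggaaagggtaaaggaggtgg
CSF2RB intron region: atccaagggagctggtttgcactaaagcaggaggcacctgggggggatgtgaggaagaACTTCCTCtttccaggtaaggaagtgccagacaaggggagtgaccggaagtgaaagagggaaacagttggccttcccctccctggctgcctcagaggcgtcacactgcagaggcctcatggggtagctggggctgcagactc
A match is a run of letters and not evidence that the factor was bound.

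A shared region 12.1 kb upstream of CSF2RB (chr22:37297330-37297843) went the other way. Its score percentile was 45.6 in ATRA replicate 1, 4.4 in ATRA replicate 2, 57.0 in control replicate 1 and 37.0 in control replicate 2. The groups overlapped, and the mean was lower after ATRA by 22.0 points (limma difference -22.0, SE 19.8, adjusted p = 0.713). The difference was -1.38 points without ATRA replicate 2 and -11.9 without control replicate 1. Without ATRA replicate 1 it was -42.6, and with lists of equal size the region was not shared. It was the only one of the 6 shared regions with a lower mean percentile after ATRA, and its central 200 bp held a RUNX and a GATA match. Over all regions RUNX was found in 8.92% and GATA in 18.8%. GATA matches also lay in the ATRA-specific region 19.1 kb upstream of CSF2RA and in single-library regions of both groups. The remaining 4 regions of the CSF2RB window came from a single library, including 1 in ATRA replicate 2 near an alternative start site of CSF2RB (8.07 kb downstream, percentile 61.4, width 439 bp).

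CSF2RA is a plus-strand gene of chromosome X, at chrX:1387693-1429274, with its canonical start site at 1387707 (ENSG00000198223.18), and IL3RA at chrX:1455509-1501582, with its canonical start site at 1455678 (ENSG00000185291.12). Both are in pseudoautosomal region 1, the end of the X chromosome that has an identical copy on Y, and their windows overlap and share 3 regions. The deposited lists hold peaks on both copies. The X copy is described first, and the Y copy follows.

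The CSF2RA window held 3, 9, 2 and 2 peaks in ATRA replicate 1, ATRA replicate 2, control replicate 1 and control replicate 2, in 9 regions. Of these, 2 were ATRA-specific, 0 control-specific and 1 shared, and 5 came from ATRA replicate 2 alone. The shared region covered the start site (chrX:1387421-1387927), with a score percentile of 27.5 in ATRA replicate 1, 65.8 in ATRA replicate 2, 11.9 in control replicate 1 and 41.3 in control replicate 2. Its width was 258, 507, 217 and 259 bp in the same order. The groups overlapped in both measures, and limma gave differences of 20.0 percentile points (SE 20.1, adjusted p = 0.750) and 0.34 in log2 relative width (SE 0.35, adjusted p = 0.835). The percentile difference was 0.83 points without ATRA replicate 2, 5.29 without control replicate 1, 34.7 without control replicate 2 and 39.2 without ATRA replicate 1. The log2 width difference was 0.029, 0.14, 0.55 and 0.66 in the same order.

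An ATRA-specific region (chrX:1358532-1359053), 28.9 kb upstream of CSF2RA and nearer to the start site of CRLF2 (27223 bp), had no control peak. Its score percentile was 70.9 in ATRA replicate 1 and 73.6 in ATRA replicate 2, and its width was 408 and 464 bp. The other ATRA-specific region lay 19.1 kb upstream (chrX:1368259-1368811), with percentiles of 71.6 and 70.2 in the ATRA libraries and 45.2 in control replicate 1, and no peak in control replicate 2. The central 200 bp of the promoter region (chrX:1387615-1387814) and of the region without control peaks (chrX:1358665-1358864) are shown on the plus strand of hg19. They stand for a shared and an ATRA-only region of this window. Which gene the region without control peaks acts on, if any, was not tested. Neither stretch holds any of the 5 motifs.
CSF2RA promoter region: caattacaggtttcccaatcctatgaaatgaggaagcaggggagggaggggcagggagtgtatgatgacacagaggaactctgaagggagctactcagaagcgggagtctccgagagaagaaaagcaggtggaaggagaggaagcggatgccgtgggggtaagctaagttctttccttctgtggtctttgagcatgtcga
CSF2RA upstream region: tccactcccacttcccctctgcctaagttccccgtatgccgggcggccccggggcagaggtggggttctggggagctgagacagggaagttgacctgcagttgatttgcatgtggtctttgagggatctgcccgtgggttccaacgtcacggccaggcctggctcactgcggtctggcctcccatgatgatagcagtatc

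IL3RA had no promoter peak in any library. The nearest peak on the X copy lay 55.2 kb from its start site in ATRA replicate 1, 13.2 kb in ATRA replicate 2, 55.3 kb in control replicate 1 and 13.3 kb in control replicate 2. Its window held 1, 4, 1 and 2 peaks in the same order, in 4 regions, with 0 ATRA-specific and 0 control-specific regions. The 1 shared region covered the start site of the neighbouring gene SLC25A6, a mitochondrial ADP/ATP carrier (chrX:1510871-1511484), 55.5 kb downstream. There the score percentile was 80.4 in ATRA replicate 1, 78.3 in ATRA replicate 2, 74.1 in control replicate 1 and 43.5 in control replicate 2. Both ATRA values lay above both control values, by a mean of 20.6 points (SE 16.2, limma adjusted p = 0.672), while the log2 relative width difference was 0.39 (SE 0.34, limma adjusted p = 0.803). With lists of equal size the groups overlapped in percentile (67.2 in ATRA replicate 2 and 74.1 in control replicate 1), as they did in quantile-normalized log2 scores. The percentile difference was 5.30 points without control replicate 2 and 35.9 without control replicate 1. In the same order the log2 width difference was 0.019 and 0.76, and it was 0.24 without ATRA replicate 1.

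The RefSeq promoter of IL3RA (chrX:1336535-1336834, plus strand of GRCh38.p14) is printed as the promoter without a peak. It holds a C/EBP and a GATA match, in capitals, and GATA was found in 16.4% of all promoters of the table.
IL3RA RefSeq promoter: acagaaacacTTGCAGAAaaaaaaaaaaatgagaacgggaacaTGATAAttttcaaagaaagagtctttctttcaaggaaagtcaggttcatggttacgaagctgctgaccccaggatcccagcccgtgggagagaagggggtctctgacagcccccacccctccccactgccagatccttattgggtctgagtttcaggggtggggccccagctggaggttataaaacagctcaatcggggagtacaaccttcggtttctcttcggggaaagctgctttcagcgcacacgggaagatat

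On the Y copy the windows held 8 further regions, and the X and Y copies together gave 11 loci. ATRA replicate 1 had a peak at 6 of the 11 loci on either copy, ATRA replicate 2 at 10, control replicate 1 at 3 and control replicate 2 at 5. Both copies carried a peak at 3, 7, 3 and 1 of these loci in the same order. The score percentiles of the copies of 1 locus differed by up to 61.1 points in ATRA replicate 1, at the locus 19.1 kb upstream of CSF2RA (71.6 on X and 10.5 on Y). In the lists, a library could therefore lack a peak on 1 copy and have it on the other. The copies have the same sequence, and how reads that fit both were placed is not given. A peak listed on Y thus does not show that its reads came from a Y chromosome.

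With a locus counted as present when either copy had a peak, 3 loci were ATRA-specific, 3 were shared and 5 were neither, and none of the 3 ATRA-specific loci had a control peak on either copy. Over all regions of the genome 17.9% were ATRA-specific, 8.94% were so without a control peak, and 30.3% were shared. Those shares count each copy on its own. A locus here could have its peak on either copy, so the shares are not directly comparable. The region 28.9 kb upstream of CSF2RA remained ATRA-specific. The locus 19.1 kb upstream, ATRA-specific on X, became shared, since control replicate 2 had a peak on Y at percentile 43.6. The other ATRA-specific loci lay 35.9 kb upstream, with percentiles of 28.5 and 30.2 on Y in ATRA replicates 1 and 2, and 48.0 kb downstream, with 27.5 and 58.0 on Y. At both of these the X copy had a peak in ATRA replicate 2 only. The locus 48.0 kb downstream of the CSF2RA start site also lay in the IL3RA window. The IL3RA start site was without a peak on Y as on X.

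**Figure D2:**
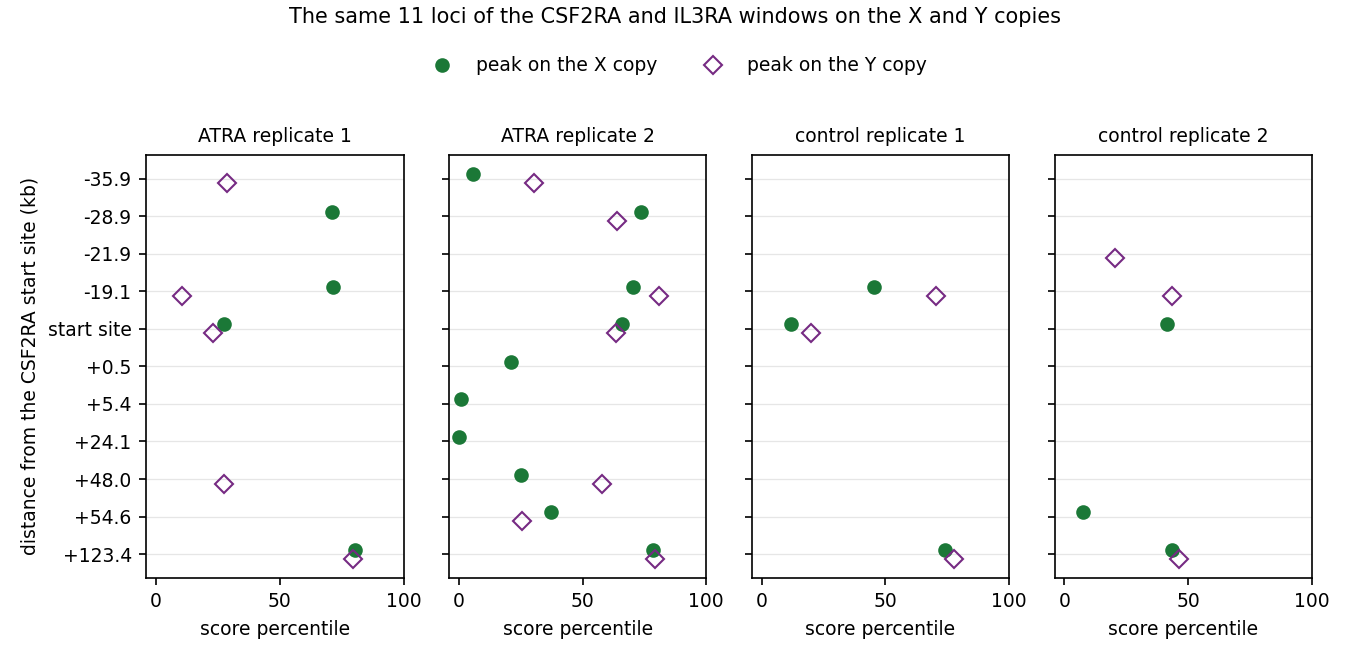
Score percentile of the peaks at the 11 loci of the CSF2RA and IL3RA windows on the X copy (circles) and on the Y copy (diamonds), in 1 panel per library, with loci ordered by distance from the CSF2RA start site. At the locus 28.9 kb upstream, peaks appear in the ATRA panels only, and in ATRA replicate 1 the 19.1 kb locus has a percentile of 71.6 on X and 10.5 on Y.

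Over all 4 windows, 6 regions were measured in all 4 libraries, and none passed limma's test of score percentile or of relative width. Over the 23653 such regions of the genome limma called 0 higher and 0 lower in either measure at an adjusted p under 0.05, while at an unadjusted p under 0.05 it gave 1765 higher (7.46%) and 663 lower (2.80%) in percentile, and 1329 wider (5.62%) and 840 narrower (3.55%) in relative width. At this unadjusted level, 0 of the 6 window regions differed in percentile and 3 in width, all wider after ATRA. The limma p-values set the difference of a region against its spread between 2 libraries per group. That spread was drawn toward the spread of all regions tested, with prior degrees of freedom of 7.09 in percentile and 8.11 in width. The percentile was higher in both ATRA libraries than in both control libraries at 4 of the 6 regions, against 29.2% of all regions tested, and lower in both at 0, against 12.8%. This count was 3 of 6 with the mean percentile of joined peaks (29.1% of all regions), where the CSF2RB start site overlapped. It was 3 of 5 with lists of equal size (22.6%) and 3 of 6 with quantile-normalized log2 scores (21.9%), where the SLC25A6 promoter overlapped. The relative width was larger in both ATRA libraries at 3 of the 6, against 22.1%, and smaller at 0, against 16.5%. Larger widths numbered 4 of 6 with no division by the list median (37.1% of all regions), and 1 region, that upstream of CSF2RB, was smaller with quantile-normalized widths (20.7%). The median difference over the 6 was 22.0 percentile points, beside 2.83 over all regions tested, and 0.60 in log2 relative width, beside 0.04. Single differences ran from -22.0 to 32.2 points and from -0.44 to 1.31 in log2 relative width. The 6 include the promoters of the neighbours MRPS15 (23.5 points) and SLC25A6 (20.6 points), so the median does not describe the receptor genes alone.

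**Figure D3:**
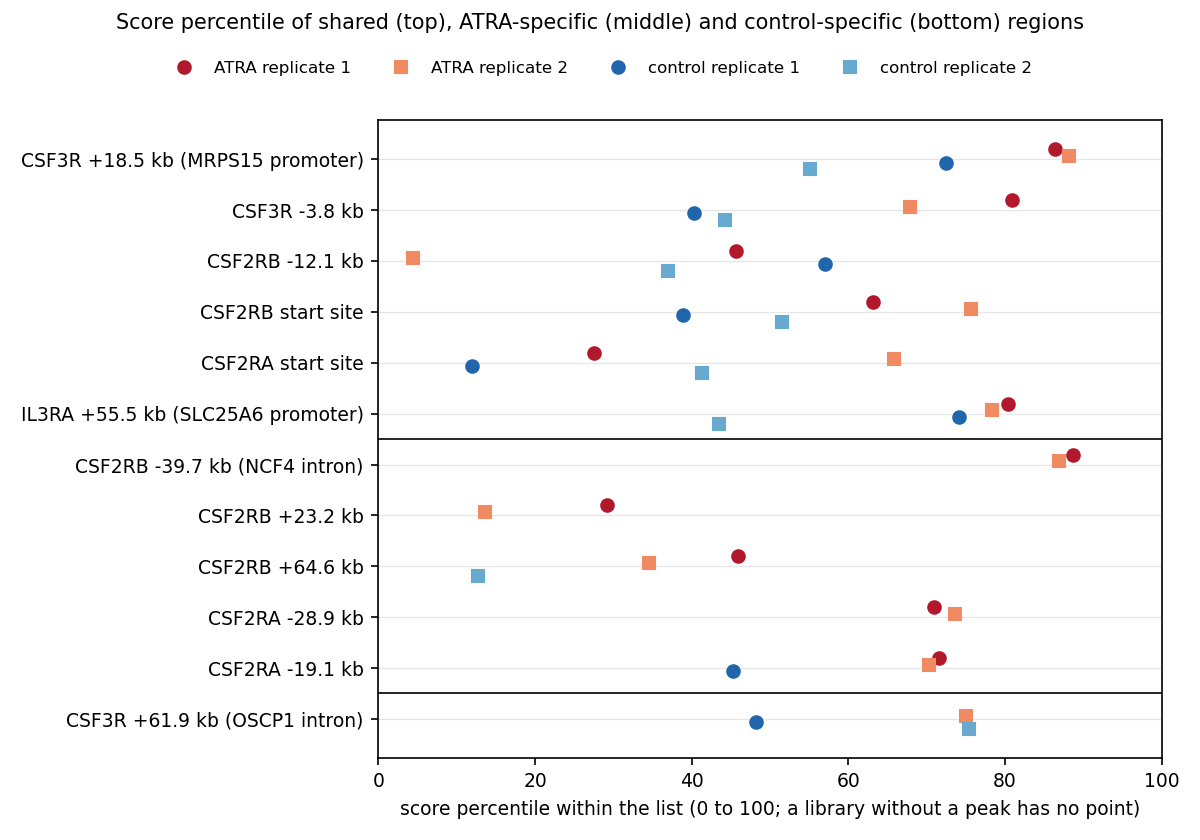
Score percentile within the list (0 to 100) of the 6 shared, 5 ATRA-specific and 1 control-specific regions of the windows (X copy), with 1 point per library and no point where the library has no peak. The ATRA points lie above the control points at 4 of the 6 shared regions, against 29.2% of all regions tested. The promoters of the neighbours MRPS15 and SLC25A6 are among the 4. The count is 3 with the mean percentile of joined peaks (29.1%), and 3 of 5 with lists of equal size (22.6%). The region 12.1 kb upstream of CSF2RB has its lowest value, 4.4, in ATRA replicate 2.

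**Figure D4:**
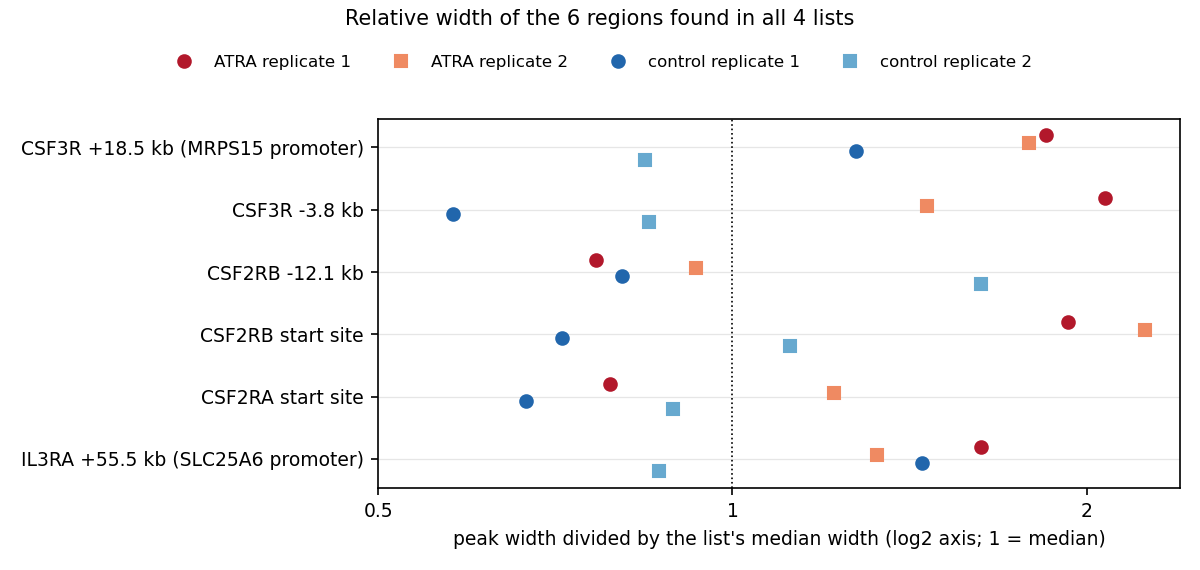
Peak width divided by the median width of the list, on a log2 axis, for the 6 regions found in all 4 libraries, with 1 point per library and the dotted line at the median. At the region upstream of CSF3R, the CSF2RB start site and the MRPS15 promoter both ATRA points lie to the right of both control points. This pattern was found in 22.1% of all regions tested.

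The windows were also compared by the length they had in peaks, per 10 kb of window so that genes of different length could be set side by side. CSF3R had 110 and 238 bp per 10 kb in ATRA replicates 1 and 2 and 128 and 89.3 bp in control replicates 1 and 2. In the same order CSF2RB had 166, 276, 39.0 and 110 bp, and CSF2RA had 68.4, 220, 37.7 and 33.1 bp. IL3RA had the smallest covered length of the 4 genes in every library, with 36.5, 98.4, 32.2 and 31.6 bp on the X copy. For CSF2RA and IL3RA only peaks on X were counted, here and in the comparisons of covered length, likeness and pathway genes that follow. Their peaks on Y were left out, so their lengths cannot be ranked fairly against those of CSF3R and CSF2RB. The ranges of the 4 genes over the libraries overlapped, and the order of CSF3R and CSF2RB differed between libraries.

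Because the list of ATRA replicate 2 covered more of the genome, the covered length was also taken per Mb covered by the whole list. CSF2RB then had 120.5 bp per Mb in ATRA replicate 1, 110.5 in ATRA replicate 2, 29.0 in control replicate 1 and 85.5 in control replicate 2. CSF2RA had 55.3, 98.5, 31.3 and 28.7 and IL3RA 30.4, 45.4, 27.6 and 28.3, so that for these 3 genes both ATRA libraries lay above both controls. The same pattern was found in 25.1% of 19433 genes with a region in their window, and the opposite in 20.5%. CSF3R had 73.4, 88.1, 88.1 and 64.1 bp per Mb and its groups overlapped. For the 4 windows together, the covered length was 4898, 9948, 3003 and 3164 bp, or 7423 ± 3571 bp (SD, n = 2) after ATRA and 3083.5 ± 113.8 bp (SD, n = 2) in control cells. The two-sided exact permutation test gave p = 0.33, the smallest that 2 libraries against 2 allow, and p = 0.667 for the number of peaks (12, 23, 11 and 12).

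By the covered length per 10 kb in the 4 libraries, the gene most like CSF3R was ADPRHL1 (Euclidean distance of log2 values with 1 added, 0.0670), and TENT4A (0.126) and LONRF1 (0.137) came next. For CSF2RB these were FFAR4 (0.406), SFRP5 (0.499) and FCAMR (0.539), and for CSF2RA MCRS1 (0.255), CEP20 (0.352) and BACH1 (0.379). For IL3RA they were RASL12 (0.200), TADA2A (0.204) and MYRFL (0.246). These are likenesses over 4 libraries only.

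The other genes of these pathways were taken from lists of 40 genes, each with the same window. At least 1 ATRA-specific region was found near 36 of the 40 (90.0%), against 66.6% of all genes with a region, and near 2 of the 4 receptors. At least 1 control-specific region was found near 21 of the 40 (52.5%), against 40.5%, and near 1 of the 4 receptors. A gene with more regions has more chances of either, and the median number of ATRA-specific regions was 2 in the lists, 1 in the 4 receptors and 1 over all genes. Windows of neighbouring genes can overlap, so a region can count for more than 1 gene.

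Among the ligands, CSF3, which encodes G-CSF, had 3 ATRA-specific and 0 control-specific regions, while IL3 had 1 and 3 and CSF2, which encodes GM-CSF and neighbours IL3, had 1 and 2. Of the 9 other receptors of the class, 7 had an ATRA-specific region and 4 a control-specific one, against 66.6% and 40.5% of all genes with a region. CRLF2, counted among the 7, neighbours CSF2RA, and their windows overlap, so its count is not independent of that of CSF2RA. IL5RA, whose product also pairs with the common beta chain, had 0 ATRA-specific and 2 control-specific regions and a promoter peak in all 4 libraries. Among the 10 kinases and STATs, 9 had an ATRA-specific region and 5 a control-specific one. TYK2, a tyrosine kinase, had 5 ATRA-specific and 0 control-specific regions, whereas STAT5A, a transcription factor that the common beta chain activates, had 0 and 3.

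All 4 adaptors and all 5 inhibitors had an ATRA-specific region, and 2 of each a control-specific one. Over all genes with a region these shares were 66.6% and 40.5%. SOCS3, the suppressor that binds the G-CSF receptor, and INPP5D, the lipid phosphatase SHIP1, each had 5 ATRA-specific and 0 control-specific regions. The 3 target genes MCL1, BCL2L1 and PIM1, which act in survival, had 3, 2 and 1 ATRA-specific and 0, 1 and 3 control-specific regions. Of the 5 transcription factors known at the receptor promoters, all had an ATRA-specific region and 3 a control-specific one. SPI1, which encodes PU.1, had 4 and 2, and RUNX1 had 9 and 0 among 35 regions.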

How the data were processed

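The samples were 4 ATAC-seq libraries of HL-60 cells, 2 per group, with groups and replicate numbers taken from the sample titles. Per the study's methods, the authors trimmed adapters from the reads, mapped them with Bowtie to hg19, and ran MACS2 at its defaults on each library. The submitters' processing notes name cutadapt, Bowtie2, MACS and MACS2. The handling of duplicates and of reads that fit several places, and any correction for the Tn5 cut position, are not given in the sources used here. The deposited score ran from 50 to 3100 on a scale that is not stated, and served only as a rank within its list. Widths are the other deposited values used, as end minus start.

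Genes and promoters (1 kb before to 100 bp after any start site of a protein-coding transcript) came from GENCODE release 44 lifted to GRCh37 (hg19). Coordinates are 1-based, and distances run from the canonical start site to the middle of the stretch common to the libraries. Where a library had 2 peaks in a region, widths were summed and the higher percentile was used. Regions found in all 4 libraries were tested with limma 3.58.1 (R 4.3.3, eBayes with trend) and Benjamini-Hochberg adjustment. The fit was checked on simulated data with shifts larger than any seen in the windows, so this check does not measure the power for these regions. Motifs were searched on both strands as GAGGAAGT for PU.1, TTGCNNAA for C/EBP, AACCACA for RUNX, AGATAA or TGATAA for the GATA factors and TGACTCA or TGAGTCA for AP-1, in 200 bp of hg19 or 300 bases of RefSeq promoters (GRCh38.p14), where 3 of the 4 genes had an entry.

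The 4 genes, the gene, marker and motif lists and the tests were chosen with earlier results of these data known. Regions of the windows were described in full where specific to a group, shared or at a promoter of the 4 genes, and otherwise mostly as counts, and the 3 genes nearest in covered length were named for each receptor. Alternatives covered stricter classes, list sizes, windows, scalings, a replicate block and leaving out each library, and the Y copies were added after the data were seen. Sequences are printed for 5 of the 28 regions, and others are not reported here.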

Additional observations from a re-analysis of the deposited data

How the results depend on the processing

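Counts in the windows depended on the settings. ATRA-specific regions, 5 as reported, numbered 3 when a peak in either control library excluded a region. They numbered 1 within gene bodies and 2 with 25 kb on either side. With the X and Y copies counted as 1 locus they numbered 6, and with the copies counted separately 8, both alternatives chosen after seeing the data. They numbered 4 to 16 when 1 library was left out, the 16 without ATRA replicate 1. Control-specific regions, 1 as reported, numbered 0 under the strict rule, 0 among peaks scoring at or above their list's median, 0 within gene bodies, 0 with 25 kb, 2 with 100 kb, 2 with equal list sizes and 0 to 5 when 1 library was left out. Shared regions, 6 as reported, numbered 1 among peaks at or above that median, 2 within gene bodies and 14 with 100 kb, the windows being smaller or larger by construction.

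Over the 23653 regions found in all 4 libraries, limma's 0 calls in score percentile became 150 higher and 221 lower with quantile-normalized log2 scores, and 0 to 252 higher when 1 library was left out, the 252 without control replicate 2. Its 0 calls in width became 21 wider and 25 narrower with equal list sizes (21663 regions tested, 5 of them in the windows), 29 and 1 with no division by the list median, and 4 and 9 with quantile normalization. When 1 library was left out they ranged from 0 to 129 wider and 0 to 23 narrower, with 129 and 23 without control replicate 1, 19 and 2 without control replicate 2, and 0 and 2 without ATRA replicate 2. The cause was not tested. Where a group was left with 1 library, that library was assumed to vary like the other group. No window region passed in any of these fits.

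Replicates of the groups share only a number. The correlation of same-numbered deviations was 0.211 in percentile and 0.0861 in log2 relative width, and with 2 pairs it does not establish a pairing. With the replicate block, limma called 183 higher and 114 lower in percentile and 83 wider and 44 narrower, and still 0 in the windows.

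The width difference of the shared region upstream of CSF2RB was -0.44 as reported and ranged from -0.95 without control replicate 1 to 0.066 without control replicate 2 when 1 library was left out. The 3 promoter matches (1 in CSF3R and 2 in IL3RA) became 0 in 200 bp about the promoter peak, since IL3RA has no such peak and the stretch about that of CSF3R held none. Of the other values, 217 were labelled unchanged, 44 moved and none but this width changed its sign. A count was labelled unchanged when it stayed within a set ratio of the reported count. A limma difference was labelled unchanged when it kept its sign and its side of the threshold, however much its size moved. Peak presence depends on a threshold and an unknown depth, so a missing peak is no measure of closed chromatin.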

Other observations

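Regions found in a single library made up 33.4% of all regions of the series and 50.0% of the 28 regions in the windows of CSF3R, CSF2RB, CSF2RA and IL3RA, and those of ATRA replicate 2 alone were 19.1% of all regions and 32.1% of the 28.

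Pseudoautosomal region 1, where CSF2RA and IL3RA lie, had 13 peaks on X and 16 on Y in ATRA replicate 1, 30 and 24 in ATRA replicate 2, 15 and 17 in control replicate 1 and 13 and 15 in control replicate 2. On X this came to 4.82, 11.1, 5.56 and 4.82 peaks per Mb, beside 7.07, 12.1, 7.71 and 9.05 on the rest of the chromosome.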
